A study of Mus musculus with 13 samples.

Results

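The 4 microRNAs described here are mmu-miR-126-3p, mmu-miR-126-5p, mmu-miR-143-3p and mmu-miR-145-5p (written below without the mouse prefix). They are known from the cells of blood vessel walls, although miR-143 and miR-145 are also found in other smooth muscle and mesenchymal cells. They were chosen by name from the 1079 mouse miRNAs on the array, and all 4 were among the 419 miRNAs tested, those detected on at least 6 of 13 arrays. They were followed across 13 primary abdominal neuroblastomas that arose spontaneously in TH-MYCN mice, a strain in which the MYCN oncogene is expressed in the sympathetic lineage. Of these tumours, 6 carried wild type caspase-8 and came with no bone marrow metastasis, and 7 were deficient in caspase-8 and came with bone marrow metastasis. Genotype and metastasis therefore changed together, and a difference between the groups cannot be assigned to either. The sources used here do not say how caspase-8 was inactivated or how old the mice were. The labels call the tumours of a group biological replicates, and each was read on 1 Agilent array of 1 colour (Cy3) that held total RNA of a whole tumour.

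MicroRNAs are short RNAs that guide Argonaute proteins to messenger RNAs, mainly through the seed at their 5′ end. miR-126 is cut from an intron of Egfl7, a gene of endothelial cells, and its 3p arm sustains VEGF signalling in the endothelium by repressing inhibitors of that pathway such as Spred1. miR-143 and miR-145 are cut from a shared primary transcript that is abundant in vascular and visceral smooth muscle and in other cells of mesenchymal origin, where serum response factor and myocardin drive it and where both act in the switch between contractile and proliferating smooth muscle. In a neuroblastoma such cells belong to the stroma.

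RefSeq (GRCm38.p6) was searched without the entries of 1 chromosome. The search gave a mature sequence for 1 of the 4, miR-126-3p, which RefSeq calls miR-126a-3p. Because of the entries left out, it does not show that RefSeq lacks the other names. The sequences below show that miRNA and the hairpin it is cut from, because the ratio of the hairpin's arms is a main readout. They also show some of the miRNAs whose levels ran close to the 4 across tumours, so that their seeds can be compared. Mature sequences are written 5′ to 3′ with the seed, bases 2 to 8, in capitals.
miR-126a-3p: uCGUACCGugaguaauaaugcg
miR-10a-5p: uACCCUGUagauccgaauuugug
miR-26a-5p: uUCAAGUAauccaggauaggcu
miR-199a-3p: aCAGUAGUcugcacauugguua
miR-199a-5p: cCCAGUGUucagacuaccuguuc
miR-152-3p: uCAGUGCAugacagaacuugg
miR-451a: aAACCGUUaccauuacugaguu
The Mir126a hairpin lies on the plus strand of mouse chromosome 2 (chr2:26591357-26591429, GRCm38.p6), inside Egfl7 in the RefSeq gene table, and its 3p arm is in capitals.
Mir126a hairpin: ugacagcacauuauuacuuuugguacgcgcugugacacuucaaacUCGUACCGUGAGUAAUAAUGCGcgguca
No 2 of the mature sequences shown shared a seed. Among the 1679 mature RefSeq names left in the search only miR-126a-3p carried its seed, and the entries left out were not checked. miR-10a-5p (chr11:96317186-96317208), miR-152-3p (chr11:96850439-96850459) and miR-451a (chr11:78073186-78073207) lie on the plus strand of chromosome 11. miR-26a-5p, miR-199a-3p and miR-199a-5p are each encoded at 2 loci.

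Between 338 and 469 mouse miRNAs were detected in a tumour, no spot was saturated, and levels are the log2 of the scaled signal, a fluorescence intensity made comparable between arrays by each array's 75th percentile. The wild type tumours lay 2 on slide 1 and 4 on slide 2 and the deficient ones 5 and 2, so that slide and group are partly confounded. Some tumours stood apart. Deficient replicate 2 had the lowest miR-126-3p and miR-126-5p of all 13 tumours, and wild type replicate 6 the highest miR-143-3p. Their arrays also differed in brightness before scaling. The 75th percentile was 1000 for deficient replicate 2 and 1929 for wild type replicate 6, the brightest array. The dimmest was that of wild type replicate 2, at 851. A list of 4 tested miRNAs of skeletal and cardiac muscle had a mean level that ran from 4.48 to 10.63. That list did not run with the 4 vessel miRNAs over 13 tumours (Pearson r between 0.042 and 0.116, permutation adjusted p of 0.853 or more). Each of the 4 was read by 2 probes of 20 spots each. The standard error from the spots was at most 1.05% of the signal for miR-126-3p, 1.76% for miR-143-3p, 9.29% for miR-126-5p and 9.39% for miR-145-5p.

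The endothelial miR-126-3p had a higher mean in deficient tumours, and the difference did not pass the test. miR-126-3p ranged from 10.54 to 11.45 with a median of 10.99 in wild type tumours and from 10.09 to 12.11 with a median of 11.73 in deficient tumours. In 5 of the 7 deficient tumours it lay above every wild type tumour, while deficient replicate 4 lay within the wild type range and deficient replicate 2 below it. The wild type mean was 11.02 ± 0.34 (SD, n = 6) and the deficient mean 11.52 ± 0.70 (SD, n = 7). Every difference below is the deficient less the wild type mean, in log2 units. That of miR-126-3p was 0.51 (SE 0.30, 95% interval −0.15 to 1.16), or 1.42-fold (0.903 to 2.23), with an adjusted p of 0.589 in limma over the 419 tested miRNAs. A two-sided exact permutation of the group labels gave p = 0.139, adjusted p = 0.277 over the 4 miRNAs. In RNA from whole tumours, fewer cells of a type and less RNA per cell cannot be told apart, and this holds for every value below.

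Deficient replicate 2 stood apart from the rest of the deficient group. Its scaled signal of miR-126-3p was 1090, whereas the other 6 deficient tumours lay between 2350 and 4415 and the wild type tumours between 1485 and 2791. Without it the difference was 0.74, and with any 1 tumour left out the adjusted p of limma was 0.501 or more. On slide 1 alone the difference was 0.40 and on slide 2 alone 0.66, each with 2 tumours in 1 group, and a fit with a slide term gave 0.53.

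miR-126-5p, the other arm of the same hairpin, was dim on these arrays and followed miR-126-3p from tumour to tumour. It ranged from 5.12 to 5.88 with a median of 5.54 in wild type and from 4.36 to 6.29 with a median of 5.86 in deficient tumours. In deficient replicate 2 it was not detected, and there its scaled signal was 20.5 against 45.6 to 78.4 in the other deficient tumours and 34.7 to 59.0 in wild type. The groups overlapped, and 3 of 7 deficient tumours lay above every wild type tumour. The difference was 0.20 (SE 0.28, 95% interval −0.40 to 0.80, limma adjusted p = 0.805, exact permutation p = 0.522). It was 0.42 without deficient replicate 2 and 0.10 without deficient replicate 1, and it turned to −0.03 with another background correction, normexp with an offset of 50.

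Of the smooth muscle pair, miR-145-5p had the wider gap between the group means. It ranged from 4.60 to 6.39 with a median of 5.30 in wild type and from 5.66 to 6.50 with a median of 5.98 in deficient tumours. The deficient tumours lay close together, and 5 of 6 wild type tumours lay below all of them, the exception being wild type replicate 6. Detection of miR-145-5p failed in 2 wild type tumours and in no deficient tumour. Those were replicates 2 and 3, whose arrays detected 338 and 383 mouse miRNAs. Their 75th percentiles before scaling were 851 and 1225, against 1000 to 1866 on the deficient arrays. The part of array brightness in this was not tested. For miR-145-5p the wild type mean was 5.31 ± 0.69 (SD, n = 6) and the deficient mean 6.01 ± 0.25 (SD, n = 7), which differ by 0.70 (SE 0.28, 95% interval 0.11 to 1.30) or 1.63-fold (1.08 to 2.45). It had an unadjusted p of 0.0227 in limma and did not pass over the 419 miRNAs (adjusted p = 0.589). Exact permutation gave p = 0.0355, adjusted p = 0.142 over the 4.

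The size of this difference varied with the setting. The scaled signal of miR-145-5p was 24.2 to 90.6, and the 2 wild type tumours in which it was not detected were its lowest, at 24.2 and 24.9. The difference was 0.03 with normexp at an offset of 50, 0.20 with normexp and no offset, 0.01 with a floor 4 times as high, under which 11 of its 13 values lie, and 1.33 with the scanner software's total gene signal. It was 0.59 after the residual background, the signal of miRNAs detected on no array, had been subtracted, 0.75 with a slide term, and 0.95 and 0.54 on slides 1 and 2 alone.

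miR-143-3p, the other of the smooth muscle pair, had the smaller difference. It ranged from 7.32 to 9.08 with a median of 7.86 in wild type and from 7.52 to 8.88 with a median of 8.17 in deficient tumours. The wild type group held both ends of the range, wild type replicate 2 at 7.32 and wild type replicate 6 at 9.08. The wild type mean was 7.96 ± 0.65 (SD, n = 6) and the deficient mean 8.23 ± 0.44 (SD, n = 7). They differed by 0.28 (SE 0.30, 95% interval −0.36 to 0.91, limma adjusted p = 0.729, exact permutation p = 0.379). Leaving out wild type replicate 6 gave 0.50, leaving out replicate 2 of the same group 0.15, and the normexp offset of 50 gave 0.09. It was 0.46 in the series matrix and 0.53 with outlier spots kept.

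**Figure D1:**
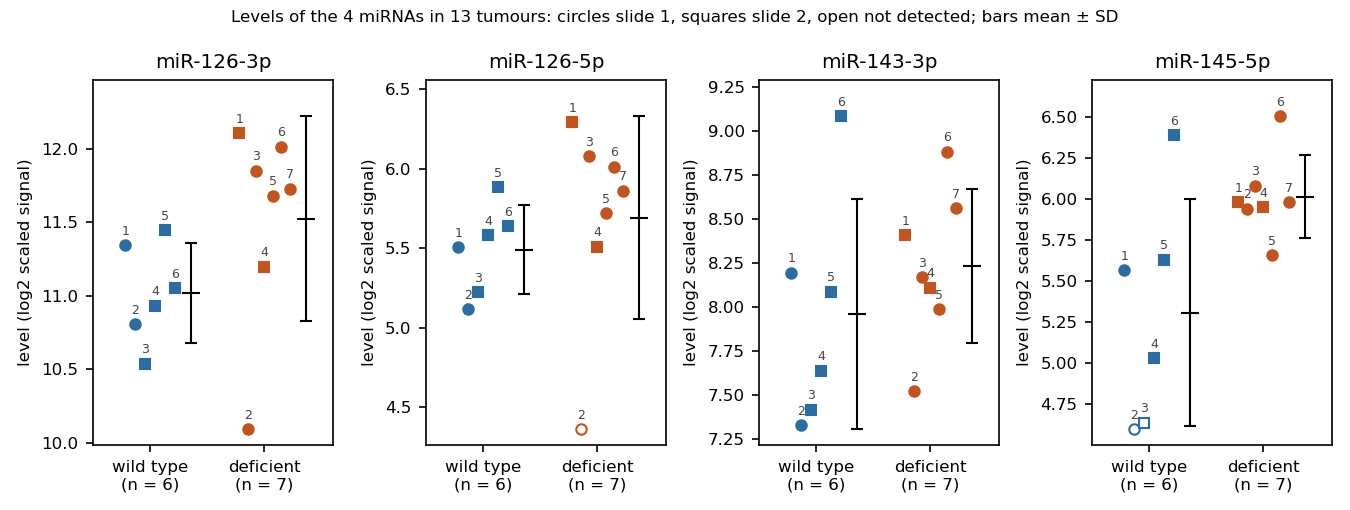
Level (log2 scaled signal, vertical axis, a separate scale for each miRNA) of the 4 miRNAs in 6 wild type and 7 deficient tumours; numbers are replicates, circles slide 1, squares slide 2, open symbols tumours where the miRNA was not detected, and bars the mean ± SD. Deficient replicate 2 is lowest for both miR-126 arms, and 5 of 6 wild type tumours lie below every deficient tumour for miR-145-5p.

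All 4 miRNAs had a higher mean in deficient tumours, as did 227 of the 419 tested miRNAs (54.2%). Their median difference was 0.39, beside 0.04 over all tested miRNAs. In limma with an adjusted p under 0.05, 0 of the 4 and 0 of 419 (0%) passed. At an unadjusted p under 0.05 it was 1 of the 4, miR-145-5p, and 16 of 419 (3.82%). Ranked by the signed difference, 94.3% of tested miRNAs lay below miR-145-5p, 88.5% below miR-126-3p, 75.2% below miR-143-3p and 68.3% below miR-126-5p. The spread of the 4 over the 13 tumours was ordinary for this array. From the lowest to the highest tumour the scaled signal changed 4.05-fold for miR-126-3p, 3.82-fold for miR-126-5p, 3.38-fold for miR-143-3p and 3.74-fold for miR-145-5p. Their SDs over the 13 tumours exceeded those of 44.9% to 56.8% of the tested miRNAs.

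Both probes of each miRNA differed in the same direction. The differences were 0.48 and 0.53 for the probes of miR-126-3p, 0.20 and 0.17 for miR-126-5p, 0.30 and 0.26 for miR-143-3p, and 0.79 and 0.65 for miR-145-5p. Across tumours the probes of a miRNA ran together, with r of 0.997, 0.859, 0.998 and 0.946 in that order, as a description over 13 tumours. No floor was applied to single probes, and some were close to background. The dimmer probe of miR-126-5p read 3.16 to 14.5 scaled units, below the floor of 17.2 used for the sum of probes. That of miR-145-5p read 7.41 to 35.4. The passenger arms miR-143-5p and miR-145-3p, also on the array, were detected in no tumour, so that for these hairpins the ratio of arms could not be measured.

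**Figure D2:**
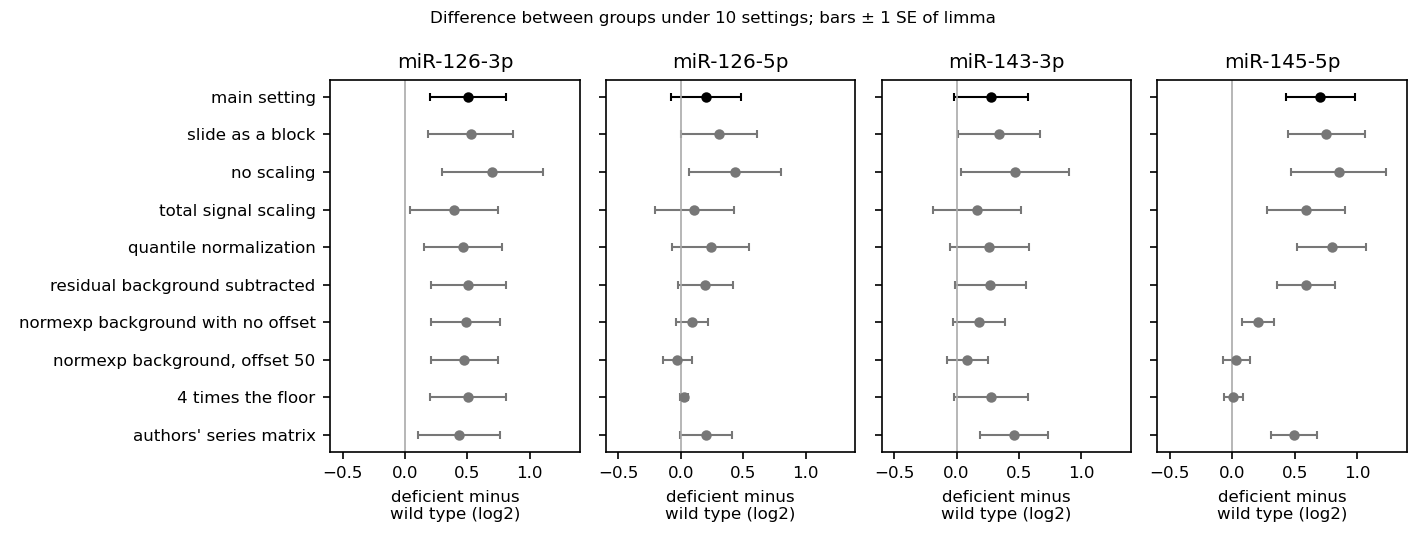
Difference of each miRNA (deficient minus wild type, log2, horizontal axis) under 10 settings named at the left; points are differences and bars ± 1 SE of limma. miR-126-3p lies right of 0 throughout, whereas miR-145-5p goes from 0.70 to 0.03 and 0.01 with the normexp offset of 50 and 4 times the floor, and miR-126-5p to −0.03 with that offset.

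Within a tumour, the signal of miR-126-3p relative to miR-126-5p was higher in deficient tumours, and that of miR-143-3p relative to miR-145-5p lower. A ratio of signals on the same array does not depend on the scaling between arrays. Because probes differ in brightness, only the change of a ratio between tumours is read here, not its size. The log2 ratio of miR-126-3p to miR-126-5p ran from 5.31 to 5.84 with a median of 5.49 in wild type and from 5.69 to 6.00 with a median of 5.82 in deficient tumours. The groups overlapped, with 4 of 6 wild type tumours below every deficient tumour and 3 of 7 deficient tumours above every wild type tumour. The means were 5.53 ± 0.21 (SD, n = 6) and 5.83 ± 0.12 (SD, n = 7). They differed by 0.31 (two-sided exact permutation over 1716 regroupings, p = 0.00932, adjusted p = 0.0140 over the 3 ratios tested).

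The wild type tumours of slide 1 had the highest wild type ratios of the miR-126 arms, 5.84 and 5.69, against 5.31 to 5.56 on slide 2. The difference was 0.10 on slide 1 alone, 0.34 on slide 2 alone and 0.22 with a slide term (exact permutation over 315 regroupings, p = 0.0191, adjusted p = 0.0333). The call was lost when log2 probe levels were averaged in place of summing probes (0.28, exact permutation adjusted p = 0.137), with the authors' deposited series matrix (0.23, exact permutation adjusted p = 0.706), and with normexp or 4 times the floor (0.40 to 0.50, exact permutation adjusted p of 0.218 to 0.540).

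The log2 ratio of miR-143-3p to miR-145-5p ran from 2.46 to 2.78 with a median of 2.66 in wild type and from 1.58 to 2.58 with a median of 2.33 in deficient tumours. In 6 of 7 deficient tumours it lay below every wild type tumour, deficient replicate 7 being the exception. The means were 2.65 ± 0.11 (SD, n = 6) and 2.22 ± 0.33 (SD, n = 7), and the change was −0.43 (adjusted p = 0.0122 and unadjusted p = 0.00408 by exact permutation). The tumour that lay lowest was deficient replicate 2, at 1.58, and without it the difference was −0.32 (exact permutation p = 0.00433). It was −0.42 with a slide term (by exact permutation adjusted p = 0.0333), −0.49 within slide 1 and −0.34 within slide 2.

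This ratio did not keep its call under every setting, and except for the raised floor the cause was not tested. With normexp the difference was 0.06 at an offset of 50 and −0.02 at none, with 4 times the floor 0.27, and with the series matrix −0.03 (exact permutation adjusted p of 0.311 or more in each). In the series matrix both sides moved, miR-143-3p to a difference of 0.46 and miR-145-5p to 0.50. After subtraction of the residual background, which came to −11.4 to −3.12 scaled units for a pair of probes, the differences of the miR-126 and miR-143 to miR-145 ratios were 0.31 and −0.32 (exact permutation adjusted p = 0.0472 for both). That subtraction was chosen after the values had been seen.

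The third ratio set the endothelial miR-126-3p against the smooth muscle miR-145-5p. Its wild type mean was 5.71 ± 0.54 (SD, n = 6) and its deficient mean 5.51 ± 0.67 (SD, n = 7), and the difference was −0.20 (exact permutation p = 0.567). Wild type replicate 6, at 4.66, and deficient replicate 2, at 4.15, were the lowest of their groups. Without deficient replicate 2 the difference was 0.03.

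**Figure D3:**
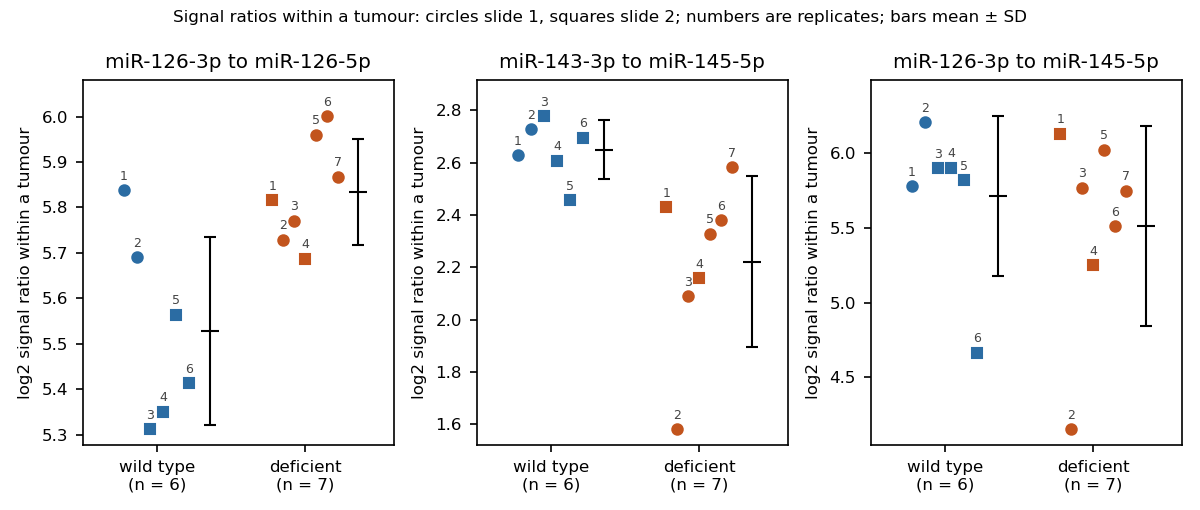
Log2 ratio of 2 signals within a tumour (vertical axis, a separate scale for each ratio) in 6 wild type and 7 deficient tumours; numbers are replicates, circles slide 1, squares slide 2, bars mean ± SD. For miR-143-3p to miR-145-5p, 6 of 7 deficient tumours lie below every wild type tumour, and for miR-126-3p to miR-126-5p the wild type squares of slide 2 lie lowest.

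The arms of the miR-126 hairpin ran together across tumours, and so did miR-143-3p and miR-145-5p. Over 13 tumours Pearson's r of miR-126-3p with miR-126-5p was 0.934 (permutation p = 1e-05, the smallest that 100000 permutations can give, adjusted p = 6e-05 over 6 pairs), and Spearman's rho was 0.923 (permutation p = 4e-05). It was 0.894 without the 2 tumours farthest from the median, 0.991 and 0.970 within slides 1 and 2, and 0.792 and 0.989 within wild type and deficient tumours. With normexp it was −0.10 at an offset of 50 and 0.398 at none.

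For miR-143-3p with miR-145-5p, r was 0.840 (permutation p = 0.00043, adjusted p = 0.00129) and rho 0.841 (permutation p = 0.00063). It was 0.772 without the 2 tumours farthest from the median, 0.765 and 0.941 within slides 1 and 2, and 0.987 and 0.670 within wild type and deficient tumours. Deficient replicate 2 lay off the line, with miR-145-5p at 5.94 although its miR-143-3p was the lowest of the deficient group at 7.52. Without that tumour r was 0.939. With the normexp offset of 50 it was 0.0216.

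Between the endothelial and the smooth muscle miRNAs the relations were looser. miR-126-3p ran with miR-143-3p at r = 0.649 (permutation p = 0.0167, adjusted p = 0.0260) and rho = 0.681 (permutation p = 0.0125), and within slides at 0.821 and 0.449. It no longer passed without the 2 tumours farthest from the median, wild type replicate 3 and deficient replicate 2 (r = 0.484, permutation p = 0.134), and without deficient replicate 2 alone it was 0.601 (permutation adjusted p = 0.0397). Wild type replicate 6 combined the highest miR-143-3p with an unremarkable miR-126-3p, and without it r was 0.856. In the series matrix r was 0.0473 (permutation adjusted p = 0.879). miR-126-5p ran with miR-143-3p at r = 0.635 (permutation p = 0.0173, adjusted p = 0.0260), rho = 0.643 (permutation p = 0.0207), at 0.654 without the 2 farthest tumours and within slides at 0.775 and 0.463. That r was 0.0685 in the series matrix (permutation adjusted p = 0.879), and with normexp it turned to −0.37 at an offset of 50 and −0.11 at none.

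miR-145-5p ran with miR-126-3p at r = 0.509 (permutation p = 0.0752, adjusted p = 0.0902) and with miR-126-5p at r = 0.394 (permutation p = 0.183, adjusted p = 0.183). The rank correlations were higher, rho of 0.621 (permutation p = 0.0262) and 0.637 (permutation p = 0.0211). Without the 2 farthest tumours r was 0.638 and 0.788. Within slides 1 and 2 it was 0.452 and 0.588 with miR-126-3p, and 0.397 and 0.536 with miR-126-5p. Deficient replicate 2, which had both miR-126 arms at their lowest beside a miR-145-5p level inside the deficient range, moved these values most. Without it r was 0.739 and 0.741 (permutation adjusted p = 0.00921 for both).

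**Figure D4:**
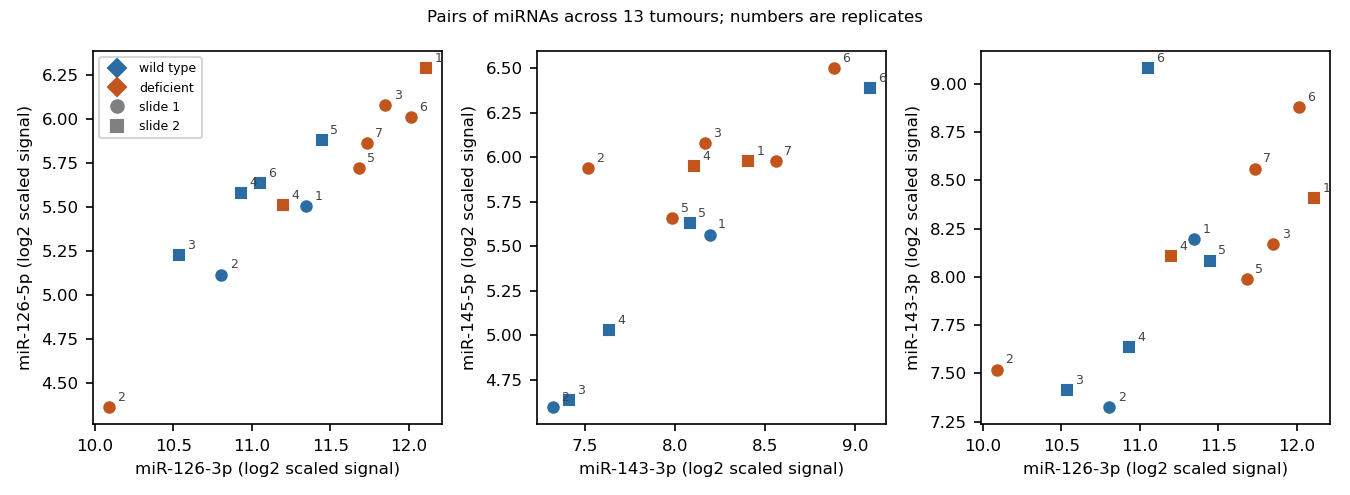
Levels (log2 scaled signal on both axes) of 3 pairs of the miRNAs in 13 tumours; colour gives the group, shape the slide and numbers the replicate. The miR-126 arms lie near a line (r = 0.934), deficient replicate 2 lies above the line of miR-143-3p and miR-145-5p, and wild type replicate 6 stands apart in miR-126-3p against miR-143-3p.

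Among the 418 other tested miRNAs, those with the most similar course over the 13 tumours differed between the endothelial and the smooth muscle miRNAs. Likeness is Pearson's r of the levels, given as a description. Over all 87571 pairs of tested miRNAs the median r was 2.6e-05, and 1.17% of pairs lay over 0.9. Whether the values below exceed those of other miRNAs was not tested. The 5 closest to miR-126-3p were miR-126-5p (0.934), miR-10a-5p (0.876), miR-199a-3p (0.773), miR-193-3p (0.772) and miR-26a-5p (0.763), and miR-143-3p and miR-145-5p ranked 21 and 55. Those closest to miR-126-5p were miR-126-3p, miR-10a-5p (0.910), miR-26a-5p (0.871), miR-223-3p (0.808), which is abundant in myeloid cells, and miR-199a-3p (0.805).

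The 5 closest to miR-143-3p were miR-140-5p (0.901), a miRNA known from cartilage, miR-199a-5p (0.901) and miR-199a-3p (0.885), arms of a hairpin of mesenchymal cells, miR-152-3p (0.879) and miR-140-3p (0.845). miR-145-5p ranked 6 in that order. Those closest to miR-145-5p were miR-143-3p (0.840), miR-152-3p (0.836), miR-144-5p (0.770) and miR-451 (0.758), both of the red cell lineage, and miR-140-5p (0.746). miR-199a-3p thus appeared for 3 of the 4 miRNAs, and miR-451 and miR-144-5p for miR-145-5p. None of the miRNAs in these orders passed the test between groups (limma adjusted p of 0.589 or more).

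Lists of related miRNAs were set beside the 4, with the number of tested members that had a higher or lower mean in deficient tumours. Of miRNAs known from angiogenesis, 7 of 18 were higher and 11 lower, with a median difference of −0.19. The brightest were miR-218-5p, which represses Robo receptors (0.06, SE 0.26), and miR-92a-3p, which restrains vessel growth (0.11, SE 0.16). Of miRNAs of mural and mesenchymal cells, 9 of 11 were higher and 2 lower, with a median of 0.11, and the brightest were miR-22-3p (0.05, SE 0.28) and miR-199a-3p (0.12, SE 0.26). None of either list passed (limma adjusted p of 0.589 or more), beside 227 of 419 (54.2%) higher over all tested miRNAs.

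Other cell types that a tumour sample holds were described in the same way, and none of their miRNAs passed either. Of the red cell list 3 of 3 were higher with a median of 0.95, with miR-451, processed by Argonaute 2 in red cell precursors, at 0.95 (SE 0.50) and miR-144-3p at 0.72 (SE 0.44). Of the leukocyte list 2 of 6 were higher with a median of −0.04, with miR-342-3p at −0.06 (SE 0.20) and miR-142-3p at 0.07 (SE 0.53). Of the neuron list 3 of 13 were higher with a median of −0.29, with miR-7a-5p at −0.50 (SE 0.25) and miR-218-5p, also in the angiogenesis list, at 0.06. Of the muscle list 2 of 4 were higher with a median of −0.03, with miR-133b-3p at −0.08 (SE 1.18) and miR-1a-3p at 0.04 (SE 1.46).

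Over all 13 tumours, the 4 vessel miRNAs ran with the mean level of the mural and mesenchymal list, miR-143-3p the closest. Relations with lists were not run with normexp or the series matrix, under which several correlations among the 4 were lost. The list's mean ranged from 7.64 to 8.55 in wild type and from 7.46 to 8.52 in deficient tumours. Its r with miR-143-3p was 0.898 (permutation adjusted p = 0.00216 over 24 relations, rho = 0.912 with permutation adjusted p = 0.00096). It was 0.878 without the 2 farthest tumours, 0.943 and 0.931 within slides, and 0.939 and 0.921 within wild type and deficient tumours. With miR-126-5p r was 0.805 (permutation adjusted p = 0.00624, rho = 0.747 with permutation adjusted p = 0.0234), 0.855 without the 2 farthest tumours, 0.885 and 0.638 within slides, and 0.625 and 0.894 within wild type and deficient tumours.

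With miR-126-3p the list's r was 0.727 (permutation adjusted p = 0.0280, rho = 0.698 with permutation adjusted p = 0.0393), 0.816 without the 2 farthest tumours and 0.902 and 0.635 within slides. Within wild type tumours it was 0.362 and within deficient tumours 0.885. With miR-145-5p it was 0.662 (permutation adjusted p = 0.0417, rho = 0.797 with permutation adjusted p = 0.0145), 0.847 without the 2 farthest tumours, 0.646 and 0.879 within slides, and 0.922 and 0.578 within wild type and deficient tumours. The angiogenesis list passed with miR-126-5p (r = 0.738, permutation adjusted p = 0.0417, rho = 0.549 with permutation adjusted p = 0.121), but r was 0.192 without the 2 farthest tumours, on which it rests. Within slides it was 0.865 and 0.156. With miR-126-3p, the brighter arm, the angiogenesis list did not pass (r = 0.553, permutation adjusted p = 0.109). There r was −0.13 without the 2 farthest tumours. The mean of that list was lowest in deficient replicate 2, at 7.79, where miR-126-5p was lowest too.

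The red cell list ran with the smooth muscle miRNAs. With miR-145-5p its r was 0.759 (permutation adjusted p = 0.0182, rho = 0.797 with permutation adjusted p = 0.0145), 0.753 without the 2 farthest tumours and 0.878 and 0.836 within slides. Within wild type tumours it was 0.851 and within deficient tumours −0.0132. With miR-143-3p it was 0.656 (permutation adjusted p = 0.0417, rho = 0.615 with permutation adjusted p = 0.0749), 0.638 without the 2 farthest tumours, 0.428 and 0.837 within slides, and 0.870 and 0.0862 within wild type and deficient tumours. The list's mean ranged from 7.79 to 11.34 with a median of 9.30 in wild type and from 9.76 to 11.71 with a median of 10.16 in deficient tumours. Its part in the difference of miR-145-5p was not tested.

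Of the leukocyte list, r passed with miR-126-5p (0.688, permutation adjusted p = 0.0417, rho = 0.758 with permutation adjusted p = 0.0232), was 0.684 without the 2 farthest tumours and 0.760 and 0.701 within slides. It did not pass with miR-126-3p, the brighter arm (r = 0.593, permutation adjusted p = 0.0861, rho = 0.654 with permutation adjusted p = 0.0549). With the neuron list r was negative for all 4, between −0.468 and −0.0929, and passed for none (permutation adjusted p of 0.233 or more). miR-143-3p also ran with the 75th percentile used to scale each array (r = 0.787, permutation adjusted p = 0.0129 over 8 relations, rho = 0.846 with permutation adjusted p = 0.00464), at 0.625 without the 2 farthest tumours and at 0.939 and 0.803 within slides. For miR-145-5p that r was 0.660 (permutation adjusted p = 0.0576), for miR-126-5p 0.606 (permutation adjusted p = 0.0752) and for miR-126-3p 0.514 (permutation adjusted p = 0.116). That measure of overall brightness was examined after the values had been seen, and its part in the relations among the miRNAs was not tested.

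**Figure D5:**
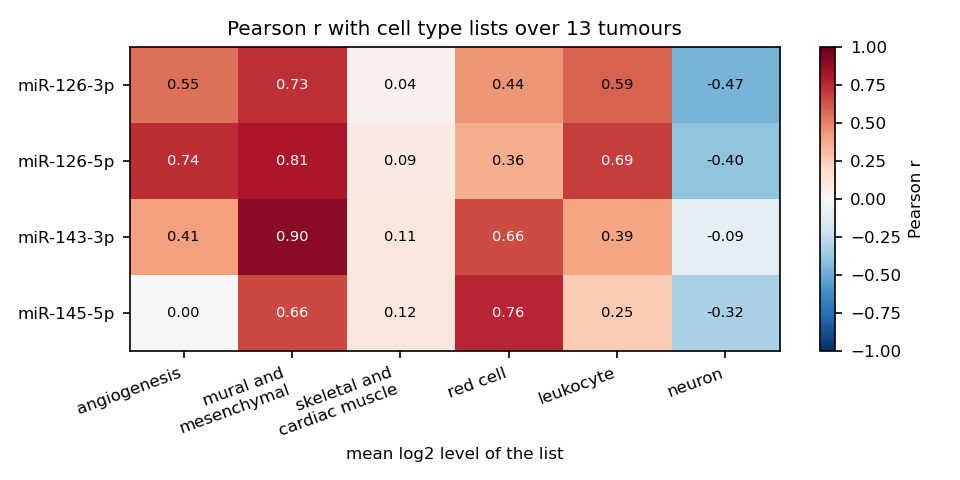
Pearson's r over 13 tumours between the level of each miRNA (rows) and the mean log2 level of 6 lists of related miRNAs (columns), with colour from −1 in blue to 1 in red. The mural and mesenchymal column is high for all 4 (0.66 to 0.90), the red cell column is highest for miR-145-5p (0.76), and the muscle column lies near 0.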

How the data were processed

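The authors' deposited scanner files hold linear spot intensity. Per the file headers, Feature Extraction 10.7.3.1 (10.5.1.1 in the submitters' processing notes) had subtracted background and a spatial trend, and nothing had been scaled between arrays. Detection and outlier marks are other, yes or no, information as defined by the file headers. The authors also deposited a series matrix of log2 values, each column with a median of 3.82, which was used as an alternative. How its background and probes were treated is not given in the sources used here.

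Of 47604 spots per array, 2164 controls and outlier spots were left out. Spots were averaged per probe and summed per miRNA, scaled so that percentile 75 of the 294 mouse miRNAs that every array detected was equal between arrays, raised to a floor of 17.2 (4.10 in log2, percentile 1 of detected values) and converted to log2. None of the 4 miRNAs was at the floor. Differences were fitted in R 4.3.3 with lmFit and eBayes of limma 3.58.1. Tests were two-sided, p-values were adjusted by Benjamini-Hochberg, and 0.05 was the threshold. Ratios were tested by exact permutation, and correlations by permutation (scipy 1.17.1). The test across miRNAs was also run on simulated data. There it recovered 53% of changes of 1 log2 unit, and 4.54% of the miRNAs it called were false. The simulated miRNAs varied independently of each other, and part of them carried planted changes of 1 or 2 log2 units. These shares need not hold for the tumours, where 0 miRNAs passed. In the main setting the differences of all 4 miRNAs were smaller than 1 log2 unit. The number of arrays limits the precision, with a median half-width of the 95% interval of 0.626.

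Named miRNAs were the 4 and their other arms, the 5 tested miRNAs with the highest r to each, and of each list the 2 brightest and any past the threshold. The members and lists were chosen with earlier results of these data known. Sequences are from RefSeq and coordinates from its GRCm38.p6 build, while the array's design names mm9. Alternatives covered scaling, background, probe summary, floor, filter, variance model, slide, replicate number, the series matrix and leaving out each tumour. The normexp correction used median spot and background signals.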

Additional observations from a re-analysis of the deposited data

Results flagged for a closer look

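A tumour far from the others of its group was looked for in 26 sets of values (levels, ratios and list means by group), and 5 were found; chance marks about 1 in 20 groups. The level of miR-126-5p in deficient replicate 2 was 4.36, against 5.51 to 6.29 in the other 6 deficient tumours. The log2 ratio of miR-126-3p to miR-145-5p in wild type replicate 6 was 4.66, against 5.78 to 6.21 in the other wild type tumours. In deficient replicate 2 the mean of the angiogenesis list was 7.79, against 8.56 to 9.05. In deficient replicate 1 the mean of the red cell list was 11.71, against 9.76 to 10.28. In deficient replicate 3 the mean of the neuron list was 7.94, against 8.36 to 8.65. Deficient replicate 2 thus stood low in an endothelial miRNA and in the list of angiogenesis miRNAs at once.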

How the results depend on the processing

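The number of tested miRNAs past the threshold was 0 under all 34 settings run. The differences of miR-126-3p, miR-143-3p and miR-145-5p kept their sign throughout (0.39 to 0.74, 0.09 to 0.53 and 0.01 to 1.33), and leaving out each tumour gave 0.41 to 0.74, 0.15 to 0.50 and 0.56 to 0.92. That of miR-126-5p was 0.10 to 0.42 without 1 tumour and −0.028 with the normexp offset of 50.

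The 3 ratios, in the order miR-126-3p to miR-126-5p, miR-143-3p to miR-145-5p and miR-126-3p to miR-145-5p, ran from 0.26 to 0.37, from −0.49 to −0.32 and from −0.41 to 0.027 without 1 tumour, the last turning positive without deficient replicate 2. The first lost its call when log2 probe levels were averaged (0.28). All 3 were 0.50, 0.056 and 0.44 with the normexp offset of 50, 0.40, −0.025 and 0.28 with normexp and no offset, and 0.48, 0.27 and 0.50 with 4 times the floor, which lies above 12 of 13 values of miR-126-5p and 11 of miR-145-5p. The series matrix gave 0.23 and −0.035 for the first and second. Within slide 1 these were 0.10 and −0.49 (exact permutation p = 0.381 and 0.1905). Within slide 2 all 3 were 0.34, −0.34 and 0.12, where exact permutation cannot go below p = 0.0667. Except for the floor, the cause was not tested.

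Same-numbered tumours did not deviate together (r of −0.22 to 0.19, 0 of 6 closest to its own number), so the numbers do not pair them. With the replicate block, over 6 pairs, the first and second ratios were 0.30 and −0.49 and did not pass (exact permutation adjusted p = 0.0938 for both), and 0 miRNAs passed.

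Correlations moved as follows. Between miR-126-3p and miR-126-5p r was −0.10 with the normexp offset of 50, 0.398 with no offset and 0.792 within wild type. Between miR-143-3p and miR-145-5p it was 0.0216, 0.445, 0.765 within slide 1 and 0.670 within deficient tumours. Between miR-126-3p and miR-143-3p it was 0.540, 0.594, 0.0473 in the series matrix, 0.821 and 0.449 within slides, and 0.534 and 0.815 within wild type and deficient tumours. Between miR-126-5p and miR-143-3p it was −0.37, −0.11, 0.0685, 0.775 and 0.463, and 0.621 and 0.781. Between miR-145-5p and miR-126-3p it was −0.23 with the offset of 50, 0.754 with no scaling, 0.739 without deficient replicate 2 and 0.593 without wild type replicate 6, and between miR-145-5p and miR-126-5p 0.768, 0.759 and 0.741. Signals close to background limit what can be said of miR-126-5p and miR-145-5p.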
